A study of Mus musculus with 9 samples.

Results

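The 10 genes described here are markers by which alternatively activated macrophages and microglia are commonly recognised: Arg1, Tgm2, Mrc1, Cd200r1, Chil3, Retnla, Il4ra, Il1rn, Cd163 and Clec10a. They were taken by gene symbol from the probe set annotation of the array, and all 10 were measured, by 14 probe sets, among 17097 named genes. The microglia were primary cultures from the cerebral cortices of C57BL/6J mice of age P0-P2, kept in DMEM with fetal bovine serum. GCM LN18 and GCM U87-MG microglia received fresh glioma-conditioned medium (GCM) from LN18 or U87-MG cells for 6 h, and untreated microglia received none. LN18 and U87-MG are established human glioblastoma lines, so human secreted factors met mouse receptors, and each medium stands for 1 line. RNA of 3 replicates per group was hybridised to single-colour mouse expression arrays, 9 in all, and the study states that its experiments used independent cultures. The values are log2 signals, and 1 unit is a doubling.

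Interleukin-4 and interleukin-13 bind receptors that contain Il4ra, the receptor's kinases phosphorylate Stat6, and Stat6 then switches on Arg1, Chil3, Retnla and Mrc1 in mouse macrophages. The genes of the resulting state serve tissue repair, uptake of glycoproteins and debris, and restraint of inflammation. In the brain, microglia are held in check in addition by neuronal CD200, the ligand of the inhibitory receptor Cd200r1. Tgm2, a transglutaminase that cross-links proteins, is a marker of interleukin-4 treated macrophages in both mouse and human.

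Median log2 signals of the 9 arrays lay between 3.40 and 3.41. The median gene had a log2 signal of 4.34, which serves below as a mark for dim genes. For 100% of the probe sets, the 3 arrays that share a replicate number had the same mean, within 1e-06, so the deposited values carry no difference between replicate numbers. With the replicate number as a block 4 residual degrees of freedom are left, and a fit without it takes 6, so its p-values are smaller than the values warrant. A gene is called below, and said to have risen or fallen, at an adjusted p under 0.05 over all 17097 genes in the fit without the block (limma, Benjamini-Hochberg), and the adjusted p with the block stands beside it. Both comparisons with untreated microglia use the same 3 untreated arrays. In cultures measured in bulk, fewer cells of a type and less RNA per cell cannot be told apart.

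Promoter windows from RefSeq (GRCm38.p6, the 250 bases before and 50 after the annotated start) were found for 6 of the 10 markers, namely Mrc1, Chil3, Retnla, Il4ra, Il1rn and Cd163. They were searched on both strands for motifs of factors that act in alternative activation and inflammation. The letters were TTC and GAA with 4 bases of any kind between them for Stat6, TTGCNNAA for C/EBP, GAGGAAGT for PU.1, TGANTCA for AP-1 and CAGACA for Smad factors, which were present in 6.95%, 10.8%, 3.2%, 7.81% and 21.0% of all 32841 windows of this length. The Stat6 letters were found in windows of Retnla and Il1rn, 1 marker that did not pass the test and 1 that fell, so these windows are shown, read in the direction of transcription with matches in capitals and no overlap between matches. In Retnla (chr16:48842359-48842658, plus strand) the capitals mark the PU.1 letters on the opposite strand at -198 from the start, then Stat6 at -145 and C/EBP at -134. In Il1rn they mark AP-1 at -141 in the first window (chr2:24336610-24336909, plus strand) and Stat6 at -121 in the second (chr2:24345041-24345340, plus strand), and a further Il1rn window holds the same Stat6 match.
Retnla: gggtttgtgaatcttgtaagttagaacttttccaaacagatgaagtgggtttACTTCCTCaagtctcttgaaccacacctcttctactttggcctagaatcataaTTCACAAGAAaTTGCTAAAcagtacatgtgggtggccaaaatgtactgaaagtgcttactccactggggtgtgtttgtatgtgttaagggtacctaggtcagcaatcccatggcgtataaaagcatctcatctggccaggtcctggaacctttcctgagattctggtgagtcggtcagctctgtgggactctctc
Il1rn, first window: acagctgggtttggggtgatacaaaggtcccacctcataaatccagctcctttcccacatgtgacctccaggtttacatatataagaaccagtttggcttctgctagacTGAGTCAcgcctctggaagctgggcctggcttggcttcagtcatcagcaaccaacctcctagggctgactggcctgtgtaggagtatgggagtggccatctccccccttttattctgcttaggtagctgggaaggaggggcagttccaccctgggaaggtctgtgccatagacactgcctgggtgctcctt
Il1rn, second window: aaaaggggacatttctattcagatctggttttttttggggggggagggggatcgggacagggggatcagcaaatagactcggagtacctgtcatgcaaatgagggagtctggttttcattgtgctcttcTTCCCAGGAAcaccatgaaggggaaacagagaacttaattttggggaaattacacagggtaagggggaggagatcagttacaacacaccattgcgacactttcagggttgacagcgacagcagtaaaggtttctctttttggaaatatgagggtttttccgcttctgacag
No other match was found in the windows of the 6 genes, and a match is a description of letters, not of a bound site.

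For the pair of markers that rose, the sequences shown are the primers with which the study followed their transcripts by PCR, a readout not analysed here.
Arg1 forward: tcaaaaggacagcctcgaggaggg
Arg1 reverse: aggtccccgtggtctctcacg
Tgm2 forward: gacaatgtggaggagggatct
Tgm2 reverse: ctctaggctgagacggtacag

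After 6 h in GCM LN18 the markers split. The enzymes Arg1 and Tgm2 rose, while the receptors Cd200r1 and Mrc1 and the cytokine antagonist Il1rn fell. The estimated rise was 3.73-fold for Arg1, from a dim baseline, and 3.20-fold for Tgm2. Within replicate numbers the log2 differences from untreated ran from 0.85 to 2.62 for Arg1 and from 0.75 to 2.74 for Tgm2. The remaining 5 markers, Chil3, Retnla, Il4ra, Cd163 and Clec10a, were dim on every array and did not pass the test. In GCM U87-MG the same 3 markers lay lower than in untreated microglia and Arg1 and Tgm2 lay higher, but only the differences of Cd200r1 and Il1rn passed the test. By this test 5 of the 10 markers were called in GCM LN18, where 5.23% of all genes were called. The 2 higher markers stand beside 2.59% of all genes called higher, and the 3 lower ones beside 2.64% called lower. With the replicate block 2 of them were called, Cd200r1 and Il1rn, where 0.877% of all genes were. Without GCM LN18 replicate 2, 3 markers were called in the fit without the block, Arg1 and Mrc1 having lost their calls. In GCM U87-MG 2 of 10 were called, where 1.51% of all genes were. Both were lower, as were 0.708% of all genes, and none was higher, as were 0.807%. With the block none was called by limma, where 0.0468% of all genes were. Leaving out GCM U87-MG replicate 1 or 3 left 0 markers called, and leaving out replicate 2 of any group, untreated replicate 1 or GCM LN18 replicate 3 left 1. The markers with an unadjusted p under 0.05 numbered 5 in GCM LN18, where 20.6% of all genes had one, and 5 in GCM U87-MG, where 17% had.

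GCM LN18 arrays did not overlap with untreated arrays for 5 of the 10 markers, against 23.9% of all genes. They lay above for 2 (11.1% of all genes) and below for 3 (12.8%). GCM U87-MG arrays did not overlap with them for 4, against 19.1% of all genes, and lay above for 1 (8.79%) and below for 3 (10.3%). Tested over all 45037 probe sets, 6 of the 14 probe sets of the markers were called in GCM LN18, where 3.33% of all probe sets were, and 1 in GCM U87-MG, where 0.797% were. These counts were 2 without GCM LN18 replicate 2, and 0 without untreated replicate 1 or GCM U87-MG replicate 1 or 3. The median log2 fold change of the 10 markers was 0.03 in GCM LN18, where the median gene stood at -0.0037, and -0.04 in GCM U87-MG, where the median gene stood at -0.0026. The fold changes of all markers are drawn with their intervals from both fits.

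**Figure D1:**
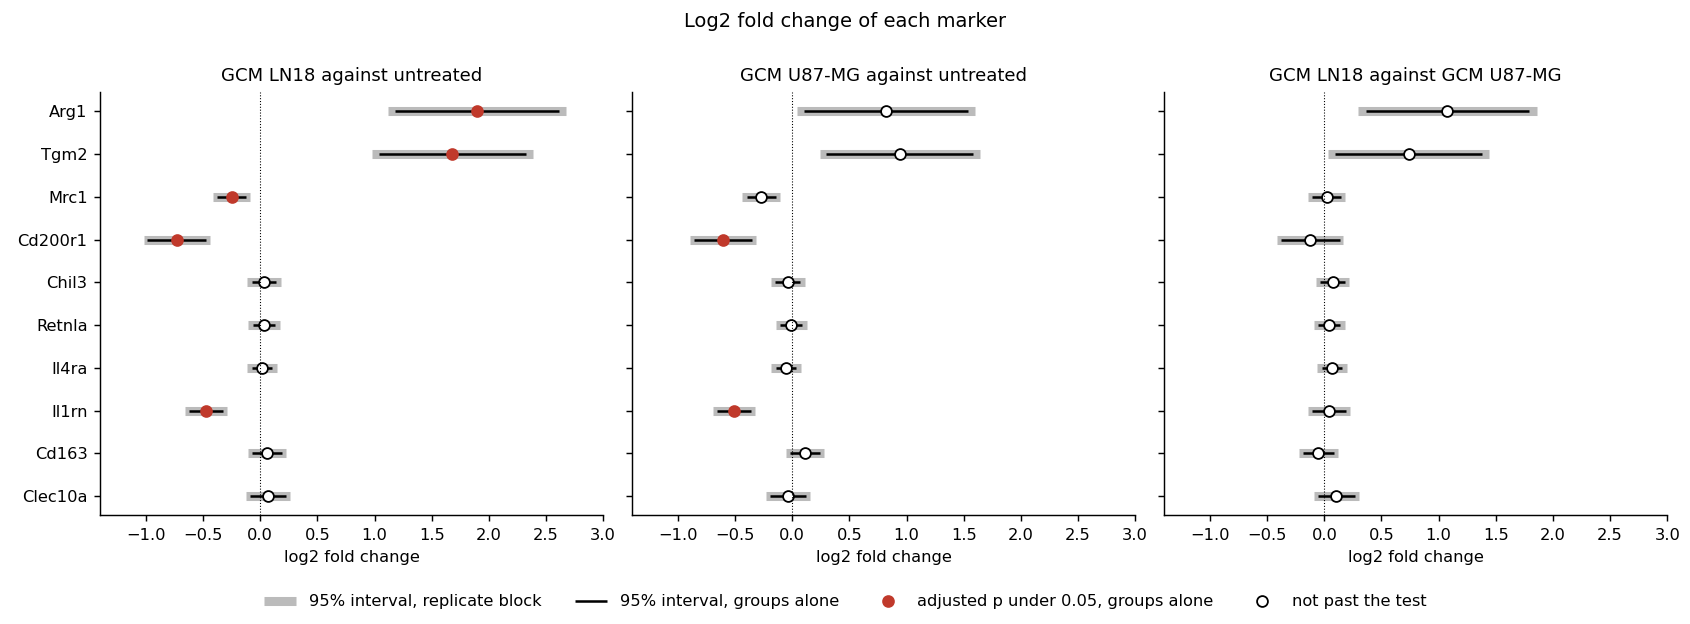
Log2 fold change of each marker in GCM LN18 against untreated, GCM U87-MG against untreated and GCM LN18 against GCM U87-MG (x axis, log2 units; 1 row per gene), with 95% intervals from the fit of groups alone (black) and with the replicate block (grey). Filled points passed an adjusted p of 0.05 in the fit of groups alone; Arg1 at 1.90 and Tgm2 at 1.68 lie farthest to the right in GCM LN18, and Cd200r1 at -0.73 farthest to the left.

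Arg1, the enzyme that splits arginine into ornithine and urea, had log2 signals of 4.12, 5.15 and 4.97 in GCM LN18 microglia, 3.87, 3.20 and 3.94 in GCM U87-MG microglia, and 3.27, 2.92 and 2.35 in untreated microglia (replicates 1, 2 and 3). All 3 GCM LN18 arrays lay above every other array, while the lowest GCM U87-MG array lay below the highest untreated one. The means were 4.75 ± 0.55, 3.67 ± 0.41 and 2.85 ± 0.47 (SD, n = 3 each). In GCM LN18 the log2 fold change was 1.90 (SE 0.32, 95% interval 1.18 to 2.61), with an adjusted p of 0.0111 by limma, and of 0.0511 with the replicate block. Without GCM LN18 replicate 2, the brightest array for Arg1, the adjusted p was 0.0515 and the log2 fold change 1.70. In GCM U87-MG the log2 fold change was 0.82 (95% interval 0.11 to 1.54, adjusted p = 0.233 by limma), a difference that did not pass the test. The untreated mean of 2.85 lay in the range of the dim markers Cd163 and Clec10a, and the deposited values carry no detection call. Arg1 was therefore not shown to be above background in untreated microglia. Its fold changes against them are lower bounds as far as background goes, and their intervals cover the spread between arrays only. Only the GCM LN18 mean of Arg1 lay above the median gene, and the GCM U87-MG mean did not, so a filter on dim genes keeps it through the group in which it was high.

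Tgm2 had log2 signals of 6.12, 7.17 and 6.40 in GCM LN18 microglia, 5.79, 5.67 and 6.03 in GCM U87-MG microglia, and 5.37, 4.44 and 4.85 in untreated microglia. The 3 groups did not overlap: each GCM LN18 array was above each GCM U87-MG array, and these were above all untreated arrays. The means were 6.57 ± 0.55, 5.83 ± 0.18 and 4.89 ± 0.47 (SD, n = 3 each). The log2 fold change in GCM LN18 was 1.68 (SE 0.28, 95% interval 1.04 to 2.32, adjusted p = 0.0116 by limma), and the adjusted p with the replicate block was 0.0533. The call held without any 1 of the 9 arrays. In GCM U87-MG the log2 fold change was 0.94 (95% interval 0.30 to 1.58), with an unadjusted p of 0.00892 and an adjusted p of 0.143 by limma.

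A second probe set of Tgm2 was dim and did not pass the test. Its means were 3.62 in GCM LN18, 3.52 in GCM U87-MG and 3.44 in untreated microglia, and its log2 fold change was 0.17 in GCM LN18 (adjusted p = 0.387 over all probe sets) and 0.07 in GCM U87-MG (adjusted p = 0.756). With both averaged, the log2 fold change of Tgm2 was 0.93 in GCM LN18 (adjusted p = 0.0259 by limma), a call that held at 1.81 times less, and 0.51 in GCM U87-MG (adjusted p = 0.220). The rise of Tgm2 was thus read from 1 of its 2 probe sets, the brighter one, and which transcripts each probe set detects was not tested.

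**Figure D2:**
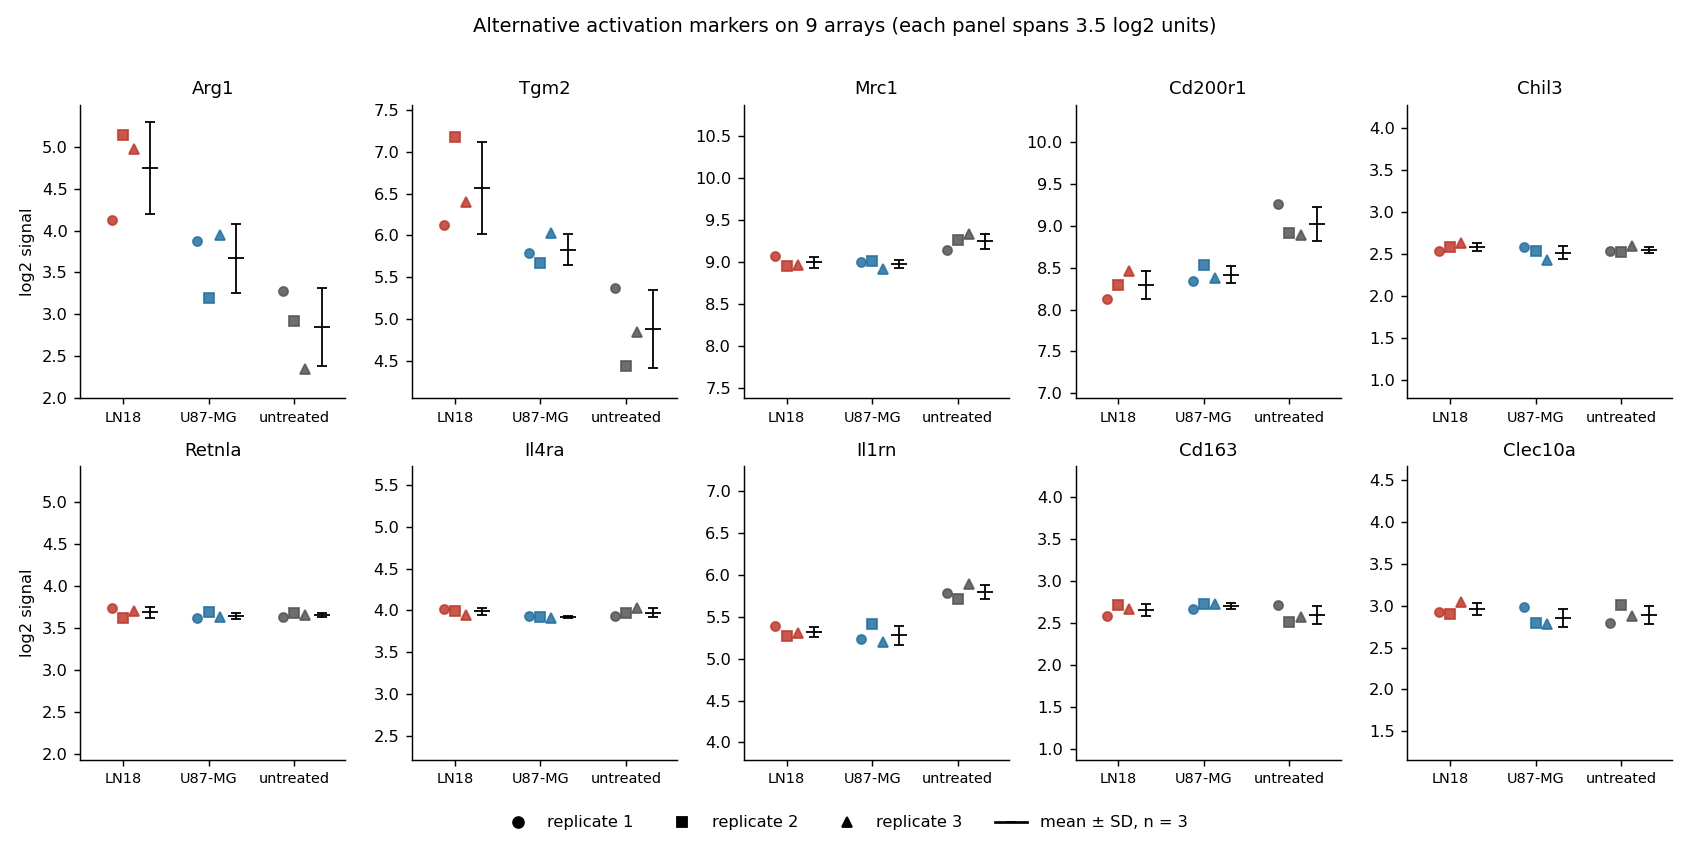
Log2 signal of the 10 markers on each array (y axis, every panel spanning the same number of log2 units; x axis, GCM LN18, GCM U87-MG and untreated; marker shape, replicate number; bar, mean ± SD, n = 3). Arg1 and Tgm2 step down from GCM LN18 to untreated, Cd200r1, Il1rn and Mrc1 lie highest in untreated microglia, and the other 5 markers stay level and dim.

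Cd200r1, the receptor through which CD200 on neurons quiets microglia, was bright and fell in both media. Its log2 signals were 8.12, 8.29 and 8.46 in GCM LN18 microglia, 8.34, 8.53 and 8.37 in GCM U87-MG microglia, and 9.26, 8.91 and 8.89 in untreated microglia. All treated arrays lay below all untreated ones, and those of both media overlapped. The log2 fold change was -0.73 in GCM LN18 (SE 0.11, 95% interval -0.99 to -0.47, adjusted p = 0.00893 by limma), a call that the block kept at 0.0484. In GCM U87-MG it was -0.61 (95% interval -0.86 to -0.35, adjusted p = 0.0426), and the block gave 0.198. The GCM U87-MG call was lost without any 1 of the GCM U87-MG arrays (0.150, 0.0742 and 0.122 without replicates 1, 2 and 3), without untreated replicate 1 or 2 (0.0764 and 0.0818), and without GCM LN18 replicate 2 or 3 (0.0707 and 0.0516), each time with the same sign. A second Cd200r1 probe set was also lower in both media on every array, by -0.88 in GCM LN18 (adjusted p = 0.0140 over all probe sets) and by -0.61 in GCM U87-MG (adjusted p = 0.0942). With both averaged, the adjusted p was 0.0100 for GCM LN18 and 0.0583 for GCM U87-MG. Cd200r1 and Cd200r4 are close copies, and which of them these probes read was not tested.

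Il1rn encodes the secreted antagonist that occupies the interleukin-1 receptor without signalling. It had log2 signals of 5.39, 5.27 and 5.31 in GCM LN18 microglia, 5.23, 5.41 and 5.20 in GCM U87-MG microglia, and 5.78, 5.72 and 5.89 in untreated microglia, so that no treated array reached an untreated one. The log2 fold change was -0.47 in GCM LN18 (SE 0.07, 95% interval -0.62 to -0.32, adjusted p = 0.00583 by limma; 0.0458 with the block) and -0.51 in GCM U87-MG (95% interval -0.66 to -0.36, adjusted p = 0.0130; 0.105 with the block). Its GCM U87-MG call was lost without replicate 1 or 3 of that group (0.0756 and 0.0663). The other 2 probe sets of Il1rn did not pass the test: their log2 fold changes were -0.13 and -0.16 in GCM LN18 (adjusted p = 0.571 and 0.311 over all probe sets) and -0.04 and -0.19 in GCM U87-MG (adjusted p = 0.902 and 0.279), and their groups overlapped. With the 3 probe sets averaged the log2 fold change was -0.25 in each medium, with adjusted p of 0.0791 with GCM LN18 and 0.129 with GCM U87-MG, so the fall of Il1rn rests on 1 of 3 probe sets.

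**Figure D3:**
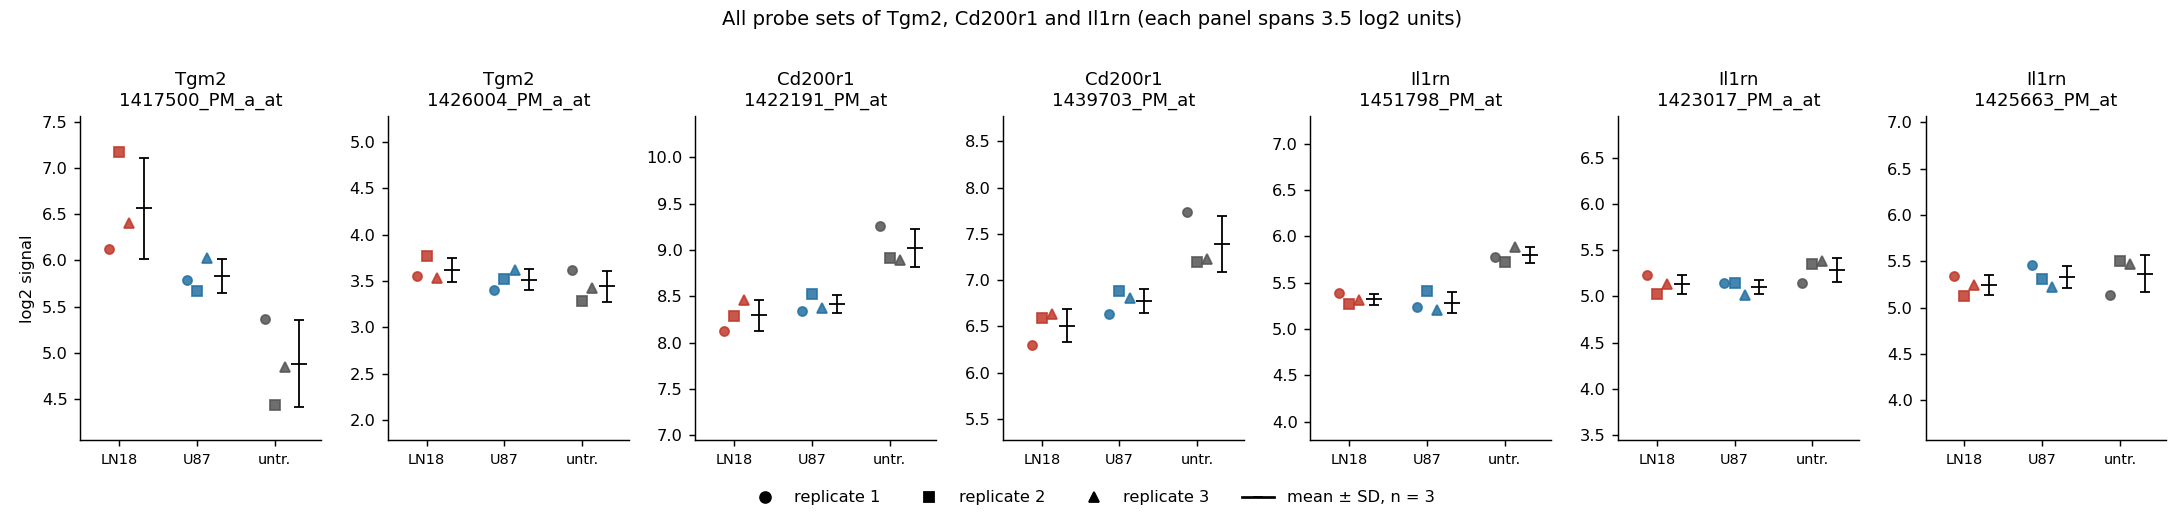
Log2 signal of every probe set of the 3 markers with more than 1, Tgm2, Cd200r1 and Il1rn (y axis; x axis, GCM LN18, GCM U87-MG and untreated; marker shape, replicate number; bar, mean ± SD, n = 3), with the brightest probe set of each gene first. Both Cd200r1 probe sets are lower in GCM, by -0.73 and -0.88 in GCM LN18. Of Tgm2 and Il1rn only the first probe set passed the test in GCM LN18, and the others differ less, in the same direction.

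Mrc1, the mannose receptor CD206 that takes up glycoproteins, was among the brighter markers and shifted little. Its log2 signals were 9.07, 8.95 and 8.97 in GCM LN18 microglia, 8.997, 9.01 and 8.92 in GCM U87-MG microglia, and 9.15, 9.26 and 9.33 in untreated microglia. No treated array reached an untreated one, with a gap that was narrow beside those of Cd200r1 and Il1rn. The log2 fold change was -0.25 in GCM LN18 (SE 0.06, 95% interval -0.38 to -0.12, adjusted p = 0.0375 by limma; 0.182 with the block) and -0.27 in GCM U87-MG (95% interval -0.40 to -0.14, adjusted p = 0.0559; 0.305 with the block). The GCM LN18 call was lost without any 1 of the GCM LN18 arrays (0.0550, 0.133 and 0.114 without replicates 1, 2 and 3), without untreated replicate 2 or 3 (0.0905 and 0.0952) and without GCM U87-MG replicate 1 (0.0575). Mrc1 passed the test in GCM U87-MG where the variance prior followed the signal (0.0488), after a filter on dim genes (0.0446) and after quantile normalization (0.0439).

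The other 5 markers include Chil3 and Retnla from among the Stat6 targets named above. Chil3, the chitinase-like protein Ym1, spanned log2 signals of 2.43 to 2.63 over the 9 arrays, and Retnla, the resistin-like protein Fizz1, spanned 3.62 to 3.74. Il4ra, the receptor chain shared by interleukin-4 and interleukin-13, spanned 3.91 to 4.03. Both targets and the receptor thus lay below the median gene of 4.34 on every array, treated or not. Cd163, the scavenger receptor for haemoglobin bound to haptoglobin, spanned 2.51 to 2.73, and Clec10a, a lectin that binds galactose-type sugars, spanned 2.79 to 3.04. None of these 5 had a group mean above the median gene, so all of them drop out under a filter on dim genes, which 5 of the 10 markers pass.

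For these 5 the groups overlapped in both comparisons with untreated microglia. In GCM LN18 the log2 fold changes lay between 0.01 for Il4ra and 0.07 for Clec10a, and the 95% intervals between -0.09 (Clec10a) and 0.23 (Clec10a). In GCM U87-MG they lay between -0.05 for Il4ra and 0.11 for Cd163, with 95% intervals between -0.20 (Clec10a) and 0.24 (Cd163). Adjusted p-values by limma were at least 0.623 in GCM LN18 and at least 0.378 in GCM U87-MG. Signals this close to the bottom of the scale, where the lowest probe set read 1.56, can hide a change of a scarce transcript. Chil3 shares most of its sequence with Chil4, and Clec10a with Mgl2, and cross-hybridisation between these copies was not tested.

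Between the media, Arg1 and Tgm2 were higher in GCM LN18 than in GCM U87-MG microglia on every array. The difference was 1.08 for Arg1 (95% interval 0.36 to 1.79, unadjusted p = 0.00772 and adjusted p = 0.260 by limma, against a dim GCM U87-MG mean) and 0.74 for Tgm2 (95% interval 0.10 to 1.38, unadjusted p = 0.0287 and adjusted p = 0.361). Neither passed the test over all genes. By limma 0 of the 10 markers were called between the media, and 2 had an unadjusted p under 0.05, where 0.00585% of all genes were called and 12% had such a p. GCM LN18 arrays lay wholly above GCM U87-MG arrays for 3 markers, Arg1, Tgm2 and Il4ra, against 8.92% of all genes, and the Il4ra difference was 0.07 (95% interval -0.02 to 0.16, adjusted p = 0.527). Cd200r1 (-0.12, 95% interval -0.38 to 0.13), Il1rn (0.04, 95% interval -0.11 to 0.19) and Mrc1 (0.02, 95% interval -0.11 to 0.15) overlapped between the media.

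Within each replicate number, the GCM LN18 array minus the untreated array gave 0.85, 2.22 and 2.62 for Arg1 (log2 units, replicates 1, 2 and 3). Tgm2 gave 0.75, 2.74 and 1.56. Replicate 1 showed the smallest rise of both enzymes in GCM LN18. For Cd200r1 the same differences were -1.14, -0.62 and -0.43, so replicate 1 showed its largest fall. Il1rn differed by -0.39, -0.45 and -0.58, and Mrc1 by -0.08, -0.31 and -0.37. In GCM U87-MG the differences were 0.60, 0.28 and 1.59 for Arg1 and 0.42, 1.23 and 1.18 for Tgm2. They were -0.92, -0.38 and -0.52 for Cd200r1, -0.55, -0.31 and -0.69 for Il1rn, and -0.15, -0.25 and -0.42 for Mrc1. All 3 replicates had the same sign for each of these 5 markers in both media, and the spread between replicates was widest for Arg1 and Tgm2. These markers were chosen by their call in GCM LN18. Treated and untreated arrays did not overlap for them, except for Arg1 in GCM U87-MG, and without overlap any pairing of arrays gives the same sign. The shared signs therefore add nothing to the calls.

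**Figure D4:**
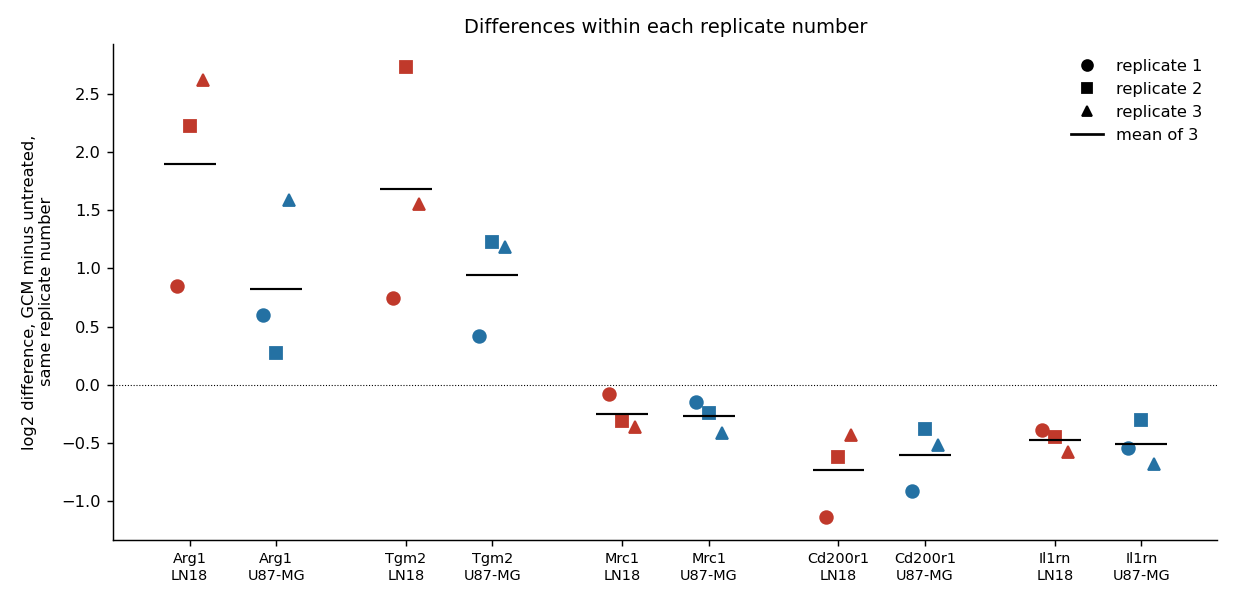
Log2 difference between the GCM array and the untreated array of the same replicate number for the 5 markers that were called in GCM LN18 (y axis, log2 units; x axis, gene and medium; marker shape, replicate number; line, mean of 3). Every point of Arg1 and Tgm2 lies above 0 and every point of Mrc1, Cd200r1 and Il1rn below 0, and Arg1 in GCM LN18 spreads from 0.85 to 2.62.

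The log2 signals of Arg1 and Tgm2 over the 9 arrays had a Pearson correlation of 0.920, which placed each at rank 63 among the genes most like the other. Lpar6, a receptor for lysophosphatidic acid, had the profile most like that of Arg1 (0.976), followed by Tmbim1 (0.975), Pdx1 (0.973), Endod1 (0.967) and Cnpy2 (0.967). For Tgm2 the closest were Mtus1 (0.996), Ift122 (0.985), E230029C05Rik (0.980), Arhgap27 (0.979) and AI593442 (0.978). These are descriptions over 9 arrays that share 3 groups and 3 replicate numbers, and the genes were ranked among all 17097. Pdx1 was dim, with means of 2.81 in GCM LN18, 2.73 in GCM U87-MG and 2.71 in untreated microglia.

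Genes around the markers were read from 12 lists. In interleukin-4 and interleukin-13 signalling 1 of 14 measured genes passed the test, in both media and upward. It was Il13ra1, the receptor chain that pairs with Il4ra, with a log2 fold change of 0.46 in GCM LN18 (adjusted p = 0.00263; 0.0281 with the block) and 0.43 in GCM U87-MG (0.00902; 0.105 with the block, and 0.0558 once GCM U87-MG replicate 1 was left out). Its log2 signals were 6.19, 6.10 and 6.26 in GCM LN18 microglia, 6.18, 6.16 and 6.11 in GCM U87-MG microglia, and 5.69, 5.80 and 5.69 in untreated microglia, with no overlap between treated and untreated. With the 5 probe sets of Il13ra1 averaged the log2 fold change was 0.32 with GCM LN18 and 0.27 with GCM U87-MG, and both calls held (0.00451 and 0.0243). The median log2 fold change of the list was -0.06 in either medium. Stat6 itself differed by 0.17 in GCM LN18 (adjusted p = 0.166) and 0.05 in GCM U87-MG (adjusted p = 0.744), and was chosen for its role after its values were seen.

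Of 11 measured transcriptional regulators of alternative activation, 1 fell in GCM LN18 and none was called in GCM U87-MG, where 3 had an unadjusted p under 0.05. Pparg, the nuclear receptor for fatty acids that sustains this state in macrophages, had log2 signals of 6.76, 6.61 and 6.72 in GCM LN18 and 7.09, 7.21 and 7.35 in untreated microglia. Its log2 fold change was -0.52 (adjusted p = 0.00989; 0.0568 with the block). Of 15 other genes induced by interleukin-4, 1 rose and 2 fell in GCM LN18, and 1 rose in GCM U87-MG. Fabp4, a fatty acid binding protein and known target of Pparg, fell by 0.78 on the log2 scale (adjusted p = 0.0294; 0.101 with the block). Tfec, a macrophage transcription factor, fell by 1.14 (adjusted p = 0.0272; 0.0913 with the block). The Fabp4 call was lost without any 1 of the GCM LN18 arrays and without untreated replicate 1 or 3 (0.0760 to 0.104), and the Tfec call without GCM LN18 replicate 1 or 2 (0.0892 and 0.0773). The medians of the lists were -0.03 and -0.04 in GCM LN18.

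Slc7a2, a transporter of arginine that interleukin-4 induces, was the gene of that list that rose, with log2 signals of 5.69, 5.81 and 5.54 in GCM LN18 microglia, 5.50, 5.68 and 5.68 in GCM U87-MG microglia, and 5.19, 4.88 and 5.16 in untreated microglia. Its log2 fold change was 0.60 in GCM LN18 (adjusted p = 0.00989; 0.0541 with the block) and 0.54 in GCM U87-MG (0.0377; 0.191 with the block). The other cationic transporter, Slc7a1, moved the other way, by -0.68 in GCM LN18 (0.00436; 0.0318 with the block) and -0.52 in GCM U87-MG (0.0309; 0.174 with the block). Slc7a7, which exports arginine from cells, rose by 0.38 in GCM LN18 (0.0142; 0.0825 with the block). These 3 were the called genes among 19 measured of arginine and polyamine metabolism, a list that had 2 higher and 1 lower in GCM LN18, and 1 higher and 1 lower in GCM U87-MG, with medians of -0.01 and 0.01. Arg2, the mitochondrial arginase, stood at 3.03 in GCM LN18, 3.31 in GCM U87-MG and 3.22 in untreated microglia, and Nos2, which uses the same substrate, at 3.07, 3.21 and 3.07 in the same order.

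The GCM U87-MG call of Slc7a2 was lost without any 1 of the GCM U87-MG arrays, without untreated replicate 1 or 2, and without GCM LN18 replicate 1 or 2 (0.0509 to 0.115). That of Slc7a1 was lost without any 1 of the GCM U87-MG arrays, without untreated replicate 1 or 2, and without GCM LN18 replicate 2 or 3 (0.0547 to 0.126). The GCM LN18 call of Slc7a7 was lost without GCM LN18 replicate 2 or 3 (0.0659 and 0.0585). The GCM LN18 calls of Slc7a1 and Slc7a2 held without any 1 of the 9 arrays. They rest on the brightest probe set: with its 4 probe sets averaged, Slc7a2 differed by 0.28 in GCM LN18 (adjusted p = 0.0776) and 0.25 in GCM U87-MG (0.156), and neither passed the test. With 3 averaged, Slc7a1 differed by -0.40 in GCM LN18 (0.00810), which passed, and by -0.28 in GCM U87-MG (0.0639), which did not.

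None of 8 measured genes in the list of other transglutaminases, which also holds F13b and Epb42, passed the limma test in either medium. Of them 1 had an unadjusted p under 0.05 in each medium, and none had a mean above the median gene. Among 8 genes for surface and matrix partners of Tgm2, 2 rose in both media. Fn1, fibronectin, to which extracellular Tgm2 binds, had log2 signals of 10.70, 10.84 and 10.82 in GCM LN18 microglia, 10.85, 10.58 and 10.65 in GCM U87-MG microglia, and 10.06, 10.17 and 10.13 in untreated microglia. Its log2 fold change was 0.67 in GCM LN18 (adjusted p = 0.00195; 0.0223 with the block) and 0.57 in GCM U87-MG (0.0107; 0.0838 with the block). Itgav, an integrin subunit, differed by 0.57 (0.0176; 0.0793 with the block) and 0.54 (0.0459; 0.210 with the block). The Itgav call was lost in GCM LN18 without GCM LN18 replicate 1 or 2 (0.0610 and 0.0735), and in GCM U87-MG without any 1 array other than untreated replicate 3 (0.0668 to 0.136). With its 5 probe sets averaged Itgav differed by 0.34 with GCM LN18 (0.0523) and 0.29 with GCM U87-MG (0.1296), and both calls were lost. The medians of the list were -0.01 with GCM LN18 and 0.08 with GCM U87-MG.

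**Figure D5:**
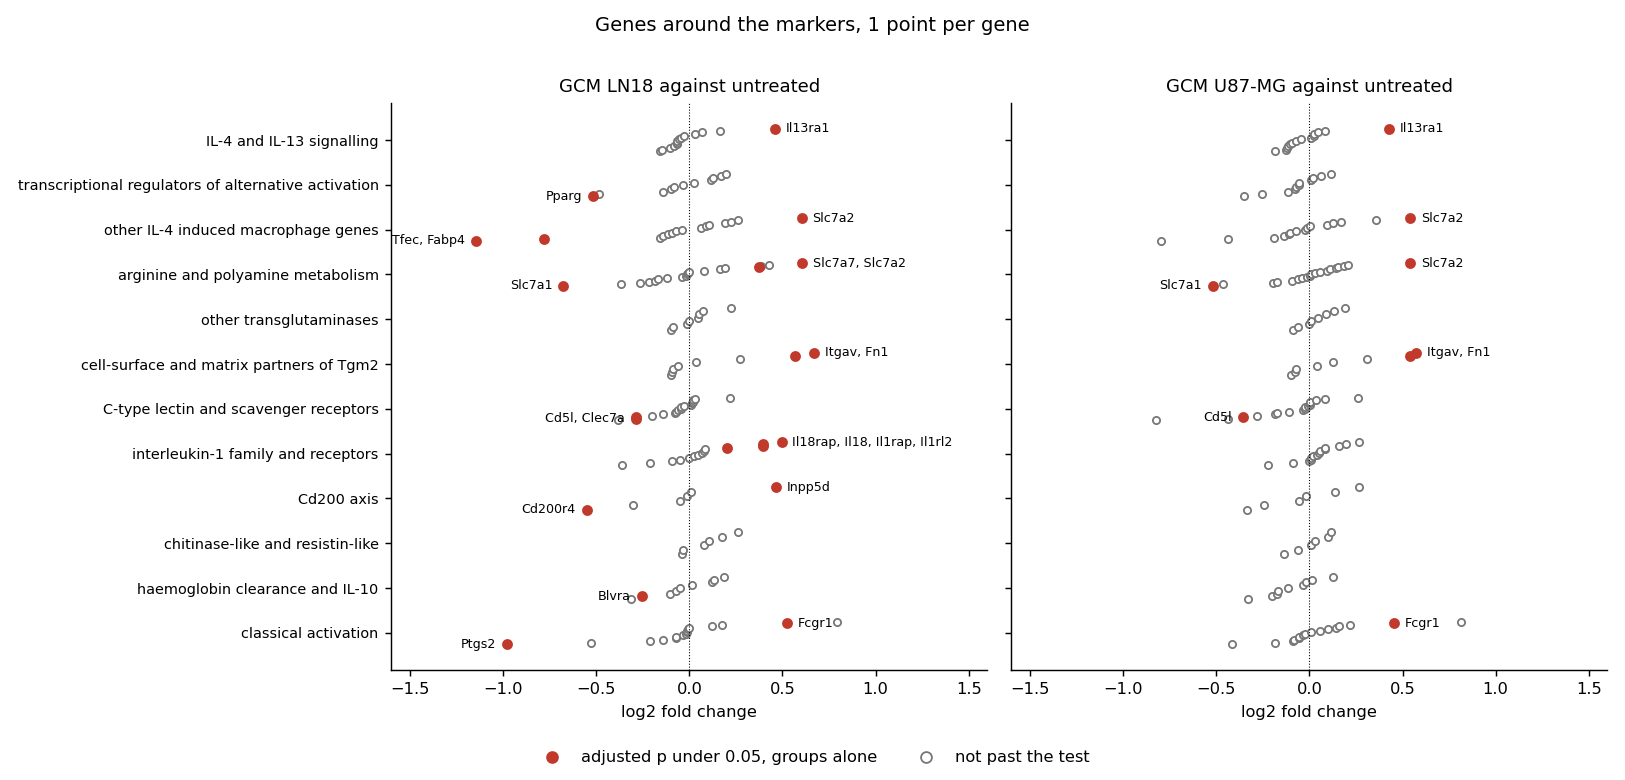
Log2 fold change of every measured gene of the 12 lists around the markers (x axis, log2 units; 1 row per list, 1 point per gene, some genes in 2 lists) in GCM LN18 against untreated and GCM U87-MG against untreated. Filled, named points passed an adjusted p of 0.05 in the fit of groups alone; in GCM LN18 the called genes run from Tfec at -1.14 to Fn1 at 0.67.

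Around Mrc1, Cd163 and Clec10a, 2 of 17 other C-type lectin and scavenger receptors fell with GCM LN18 and 1 with GCM U87-MG. Clec7a, the receptor Dectin-1 for fungal glucans, fell by 0.28 in GCM LN18 (adjusted p = 0.0157; 0.106 with the block). Cd5l, a secreted scavenger protein of macrophages, fell by 0.29 in GCM LN18 (0.0187; 0.114 with the block) and by 0.36 in GCM U87-MG (0.0212; 0.174 with the block). Clec7a lost its call without GCM LN18 replicate 1 or 2 (0.0672 and 0.0598), and Cd5l without GCM LN18 replicate 1 or 2 or untreated replicate 1 or 2 in GCM LN18 (0.0502 to 0.0756) and in GCM U87-MG without any 1 of its arrays or untreated replicate 1 or 2 (0.0585 to 0.0823). The list medians were -0.05 with GCM LN18 and -0.03 with GCM U87-MG. Around Cd163, 1 of 9 genes of haemoglobin clearance and interleukin-10 fell in GCM LN18, Blvra, which reduces biliverdin, by 0.26 (adjusted p = 0.0245; 0.146 with the block). It lost its call without any 1 of the GCM LN18 arrays and without untreated replicate 1 or 3 (0.0686 to 0.0960).

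Around Il1rn, 4 of 14 genes of the interleukin-1 family and its receptors rose in GCM LN18 and none was called by limma in GCM U87-MG, where 2 had an unadjusted p under 0.05. Il1rap, the accessory chain that the interleukin-1 receptor needs to signal, had log2 signals of 4.93, 5.06 and 4.97 in GCM LN18 and 4.58, 4.61 and 4.59 in untreated microglia, a difference of 0.395 (adjusted p = 0.00395; 0.0438 with the block). Il1rl2, the receptor for interleukin-36, rose by 0.50 (0.0116; 0.0654 with the block) and Il18, a cytokine, by 0.39 (0.0255; 0.111 with the block). The fourth, Il18rap, was named after its values were seen and differed by 0.20 (0.0417; 0.220 with the block). Il1rl2 lost its call without GCM LN18 replicate 1 (0.0510), Il18 without replicate 2 or 3 of the GCM LN18 or the untreated arrays (0.0688 to 0.0979), and Il18rap without any 1 array other than GCM U87-MG replicate 2 (0.0576 to 0.131). With all probe sets of a gene averaged, 3 of these 4 calls were lost. Il1rap then differed by 0.12 over 5 probe sets (adjusted p = 0.0670), Il1rl2 by 0.23 over 2 (0.114) and Il18rap by 0.16 over 2 (0.216), while Il18 has 1 probe set. Il1b averaged 4.24 in GCM LN18, 4.51 in GCM U87-MG and 4.45 in untreated microglia and did not pass the test. The list median was 0.06 with GCM LN18 and 0.05 with GCM U87-MG.

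Around Cd200r1, 1 of 6 measured genes rose and 1 fell in GCM LN18. Inpp5d, the lipid phosphatase SHIP1, which inhibitory receptors recruit, had log2 signals of 8.61, 8.67 and 8.49 in GCM LN18 and 8.12, 8.14 and 8.13 in untreated microglia, a difference of 0.46 (adjusted p = 0.00395; 0.0383 with the block). Cd200r4, the close copy of Cd200r1, had 8.50, 8.60 and 8.69 in GCM LN18 and 9.34, 9.04 and 9.05 in untreated microglia (log2 fold change -0.55, adjusted p = 0.0102; 0.0565 with the block). Cd200, the ligand, stood at 2.85 in GCM LN18, 3.04 in GCM U87-MG and 2.90 in untreated microglia. No gene of this list was called by limma in GCM U87-MG, where 3 had an unadjusted p under 0.05, and the list median was -0.03 with GCM LN18 and -0.04 with GCM U87-MG. Of 6 other chitinase-like and resistin-like genes none was called by limma in either medium, and an unadjusted p under 0.05 was reached by 2 of them with GCM LN18 and 1 with GCM U87-MG.

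Of 16 genes of classical activation, the state set against the alternative one, 1 rose and 1 fell in GCM LN18. Ptgs2, the inducible cyclooxygenase, had log2 signals of 4.06, 4.55 and 4.46 in GCM LN18 microglia, 5.40, 5.44 and 5.01 in GCM U87-MG microglia, and 5.51, 4.99 and 5.50 in untreated microglia. It fell by 0.98 in GCM LN18 (adjusted p = 0.0168; 0.0674 with the block), a call lost without GCM LN18 replicate 1 or untreated replicate 1 (0.0582 and 0.0541). With its 2 probe sets averaged Ptgs2 fell by 0.52 (0.0189). Fcgr1, an activating receptor for immunoglobulin, rose by 0.52 in GCM LN18 (0.00636; 0.0458 with the block) and by 0.46 in GCM U87-MG (0.0286; 0.174 with the block). The GCM U87-MG call of Fcgr1 was lost without any 1 of the GCM U87-MG arrays, without untreated replicate 1 or 2 and without GCM LN18 replicate 3 (0.0529 to 0.116), and with its 2 probe sets averaged (0.0772). The list medians were -0.02 with GCM LN18 and -0.01 with GCM U87-MG.

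The cultures expressed microglial markers, with mean log2 signals in untreated microglia of 8.92 for Csf1r and 11.24 for C1qa, but P2ry12 and Tmem119, which define microglia in the healthy brain, lay below the median gene there at 3.44 and 3.88. Of 11 measured microglial markers 6 rose with GCM LN18 and 2 with GCM U87-MG, where 2.59% and 0.807% of all genes were called higher. With the block 2 and 1 were higher, where 0.877% and 0.0468% of all genes were called in either direction. The mean log2 signal of the list was 7.97 to 8.04 in GCM LN18, 7.80 to 7.99 in GCM U87-MG and 7.45 to 7.60 in untreated microglia over the 3 arrays of each group. Mrc1 and Cd163 also mark the macrophages at the borders of the brain. For 9 measured markers of those cells the mean log2 signal was 6.92 to 6.95 in GCM LN18, 6.88 to 6.95 in GCM U87-MG and 6.84 to 6.88 in untreated microglia, and none was called by limma, with 1 at an unadjusted p under 0.05 in each medium. Only 5 of these 9 markers lay above the median gene. Markers of monocytes and neutrophils, which can also carry Arg1, had a mean log2 signal of 3.25 to 3.27 in GCM LN18, 3.29 to 3.31 in GCM U87-MG and 3.22 to 3.23 in untreated microglia, with none of 6 above the median gene. The part of the microglial markers in the marker changes was not tested.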

How the data were processed

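RNA from 9 samples of primary microglia (3 untreated, 3 GCM LN18, 3 GCM U87-MG, 6 h) was hybridised to Affymetrix MG-430 PM strips, 1 colour per array. Whether samples of the same replicate number came from 1 culture preparation was not stated. The deposited values are log2 signals per probe set, normalized by the authors. The study's methods name RMA for mouse and rat arrays taken from a public archive, and the legend for the present arrays points to the methods; whether RMA made these values was not stated outright. The submitters' processing notes name limma. All columns were used. Of 45141 probe sets, 104 controls were left out, 28898 carried 1 symbol (28689 updated by gene identifier), 551 carried several and 15588 had no symbol here. The brightest probe set stood for each of 17097 genes.

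Group means were fitted over 9 arrays with limma 3.58.1 (R 4.3.3) and Benjamini-Hochberg adjustment over all genes, called at 0.05. The number of arrays limits the precision. P-values and SDs measure the spread between these arrays, whose deposited values carry no difference between replicate numbers. They can therefore leave out part of the spread between cultures. Equal replicate means force same-numbered arrays to deviate against each other (correlations of -0.72 to -0.059), so the deviations could not show whether the numbers pair samples. The replicate block was an alternative because the methods name none. Others were the variance prior, a dim-gene filter, the probe set rule, the arrays in the fit, quantile normalization, median centring, array weights, a minimum fold of 1.2 and leaving out each array. The fit was run on simulated data. The check of false calls there left out the fit without the block on values with equal replicate means. That is the setting of the calls here, so the simulation does not vouch for them.

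Named were all 10 markers, up to 3 called genes with the largest change per list, and the 5 genes most like Arg1 and Tgm2. Stat6, Arg2, Nos2, Il1b, Cd200, Il18rap, Csf1r, C1qa, P2ry12 and Tmem119 fall outside this rule and were chosen for their roles after their values were seen. Markers and lists were chosen with earlier results of these data known.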

Additional observations from a re-analysis of the deposited data

How the results depend on the processing

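With the replicate block, 150 genes were called in GCM LN18 against 894 without it, 8 in GCM U87-MG against 259, and 0 between the media against 1. Of the markers the block kept 2 of 5 in GCM LN18 and 0 of 2 in GCM U87-MG, and of their 14 probe sets, tested over all probe sets, 0 of 6 and 0 of 1. A minimum fold of 1.2 left 34, 4 and 0 genes and no marker (0 and 0). In GCM U87-MG the count of genes was 171 with every probe set tested, 45 with only the groups compared and 153 with array weights, and the count of markers 1, 0 and 1; it was 0 with the mean of probe sets. The trended prior gave 2 marker probe sets there. Between the media 0 genes were called with the trended prior, every probe set or only the groups compared, and 2 with quantile normalization or array weights. Leaving out 1 array gave 337 to 856 genes and 3 to 5 markers in GCM LN18 (fewest without GCM LN18 replicate 2, when Arg1 and Mrc1 lost their calls), 32 to 229 genes and 0 to 2 markers in GCM U87-MG (0 markers without GCM U87-MG replicate 1 or 3), 2 to 6 and 0 to 1 marker probe sets, and 0 genes between the media each time. Upward calls were 49.6% in GCM LN18, 61.3% with the block and 76.5% with a minimum fold of 1.2. In GCM U87-MG they were 53.3%, 100% with the block or that minimum fold, 68.9% with only the groups compared and 50.2% to 78.1% with 1 array left out. The mean of probe sets ended the calls of Il1rn, Slc7a2 and Itgav in both media, of Il1rap, Il1rl2 and Il18rap in GCM LN18, and of Cd200r1, Slc7a1 and Fcgr1 in GCM U87-MG. With only the groups compared, Mrc1, Tfec and Il18rap lost their calls in GCM LN18, and Cd200r1, Il1rn, Cd5l, Fcgr1, Itgav, Slc7a1 and Slc7a2 in GCM U87-MG. Over 185 settings of the 10 markers, 168 kept the call or its absence with GCM LN18 and 163 with GCM U87-MG, and no called marker changed sign. These settings include markers without a call. A call was lost in 17 settings with GCM LN18 and in 19 with GCM U87-MG, where 3 settings gained one. Mrc1 lost its GCM LN18 call in 6 of 9 settings that left out 1 array and 3 of 10 others. Cd200r1 lost its GCM U87-MG call in 7 of 9 and 6 of 10, and Il1rn in 2 of 9 and 4 of 10. The cause of these shifts was not tested. Dim signals limit Chil3, Retnla, Il4ra, Cd163 and Clec10a in all groups and Arg1 in GCM U87-MG and untreated microglia, and 3 arrays per group limit every estimate.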
